A study of Mus musculus with 8 samples.

Results

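The VEGF and angiopoietin ligands are secreted proteins through which a tissue calls in and shapes blood vessels. A list of 8 gene symbols set the members, namely Vegfa, Vegfb, Vegfc, Pgf, Angpt1, Angpt2, Angptl2 and Angptl4, and a probe set was taken as a member where the array annotation gave it exactly 1 symbol and that symbol was on the list. This gave 13 probe sets for 7 of the 8 genes, out of 45037 probe sets that are not controls and 18193 genes with a probe set of their own. Angptl2 was not analysed here.

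The scores came from 8 mouse expression arrays, 4 of skeletal stem cells (SSC) and 4 of bone cartilage stromal progenitors (BCSP), the more committed cells that SSCs give rise to. Both populations were sorted from the callus of bicortical femoral fractures, stabilised with an intramedullary pin, in male C57/Bl6 mice of 10 to 12 weeks. The sample labels place the harvest on day 7 after fracture, whereas the methods name a later day. Both gates took CD45-, Ter119-, Tie2-, Thy1-, 6C3- and CD51+ cells. SSCs were CD105- (Eng) and were also selected as CD200+, and BCSPs were CD105+, with no selection on CD200 given. No group was uninjured or treated, so the comparison asks whether these ligands differ between stem cell and progenitor within 1 healing tissue. Each of 4 experiments supplied 1 SSC and 1 BCSP array from 10000 cells per population, sorted without culture, whose RNA was amplified in repeated rounds. A legend of the study has the cells come from different mice, and the labels tie no mouse to an array.

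VEGF-A drives sprouting of endothelial cells through VEGF receptor 2, with neuropilins as co-receptors. VEGF-B and placental growth factor (PGF) bind VEGF receptor 1, and VEGF-C acts mainly on lymphatic endothelium through VEGF receptor 3. Angiopoietin 1 activates the endothelial receptor Tie2 and stabilises vessels, angiopoietin 2 mostly opposes it, and angiopoietin-like 4 inhibits lipoprotein lipase. In a healing fracture, hypertrophic cartilage is a known source of VEGF-A, which draws vessels into the callus before bone replaces it. The ligand is also a textbook target of the hypoxia-inducible factors.

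The deposited value is an activity score in points, from about -100 to 100, in which 0 is the threshold between low and high that was learned for each probe set from a large reference collection of mouse arrays. A score above 0 is called active. The score places a probe set within its own range of expression, so it does not compare amounts of mRNA between genes, and differences are given in points and not as folds. In sorted bulk samples, fewer cells expressing a gene cannot be told apart from less RNA per cell.

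Between 29.0% and 31.0% of all probe sets were active on an array, with array medians from -34.1 to -24.8 points. The arrays of the same experiment deviated together from their group means, with correlations across probe sets of 0.164 to 0.605. Endothelial, macrophage and megakaryocyte markers were mostly below threshold in both populations. Of 13 endothelial markers measured, 12 were active on no array, Tek (Tie2) scored -99.6 to -58.0, and the exception was the transcription factor Erg at 51.1 to 68.8. The other Erg probe set was active on 1 array. Of 10 macrophage markers, 9 were active on no array, and Laptm5 was active on 3. Of 6 megakaryocyte and platelet markers, 5 were active on no array, while Gp1bb was active on all 8. Pericyte and smooth muscle markers were active on no array for 8 of 9, the exception being Cspg4. By contrast, 9 of 10 chondrocyte markers and 5 of 5 osteoblast markers measured were active on all 8 arrays, and 2 of 7 marrow stroma markers were. Cd200, selected for in SSCs, scored 94.2 to 99.6 over both populations, and Eng averaged -45.6 ± 14.4 in SSCs and 12.8 ± 24.9 in BCSPs (SD, n = 4 each).

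Among the ligands, Vegfa and Angpt1 were active on all 8 arrays in both populations, each by only 1 of its 2 probe sets. By its best-scoring probe set, Angptl4 lay just above its threshold on most arrays. The best-scoring probe sets of Pgf, Vegfc, Angpt2 and Vegfb averaged below 0. No ligand passed the test between SSCs and BCSPs. The widest spread lay within Vegfa, whose second probe set moved from experiment to experiment by far more than its score differed between the populations.

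The sequences just upstream of the highest and the lowest scoring ligand are shown because they are the ends of this range. Both windows are the 250 bases before an annotated transcription start, from RefSeq on GRCm38.p6, on the minus strand and written 5′ to 3′. Capitals mark the GC box GGGCGG or its reverse complement CCGCCC, the element bound by Sp1-type factors. The Vegfa window is chr17:46032378-46032627 and the Vegfb window is chr19:6987652-6987901.
Vegfa: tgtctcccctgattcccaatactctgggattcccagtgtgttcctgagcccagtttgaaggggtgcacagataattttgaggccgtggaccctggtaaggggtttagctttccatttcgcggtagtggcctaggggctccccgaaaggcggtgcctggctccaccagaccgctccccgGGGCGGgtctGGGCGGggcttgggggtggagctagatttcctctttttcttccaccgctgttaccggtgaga
Vegfb: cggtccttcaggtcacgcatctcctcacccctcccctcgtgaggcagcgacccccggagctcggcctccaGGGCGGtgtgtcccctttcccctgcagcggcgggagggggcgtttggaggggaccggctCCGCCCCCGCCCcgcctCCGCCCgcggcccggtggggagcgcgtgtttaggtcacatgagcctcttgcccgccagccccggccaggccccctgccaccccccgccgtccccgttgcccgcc

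The Vegfa window held 2 GC boxes and 59.2% G and C, and the Vegfb window held 4 GC boxes, of which neighbours ran on from each other, and 76.4% G and C. At least 1 GC box was found in 32.7% of 32851 windows of this length upstream of RefSeq starts. The core of the hypoxia response element, ACGTG on either strand, was in neither window and in 16.6% of all windows. Bases further upstream of these starts were not read, so an element lying there would be missed. Windows were also read for Vegfc, with 2 GC boxes, and for 2 starts of Pgf, with 2 and 0. A second annotated Vegfa start, inside the gene at window chr17:46025164-46025413, had 1 of each motif. A match is a run of letters and not a measured binding site. Angpt1, Angpt2 and Angptl4 were not matched.

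**Figure D1:**
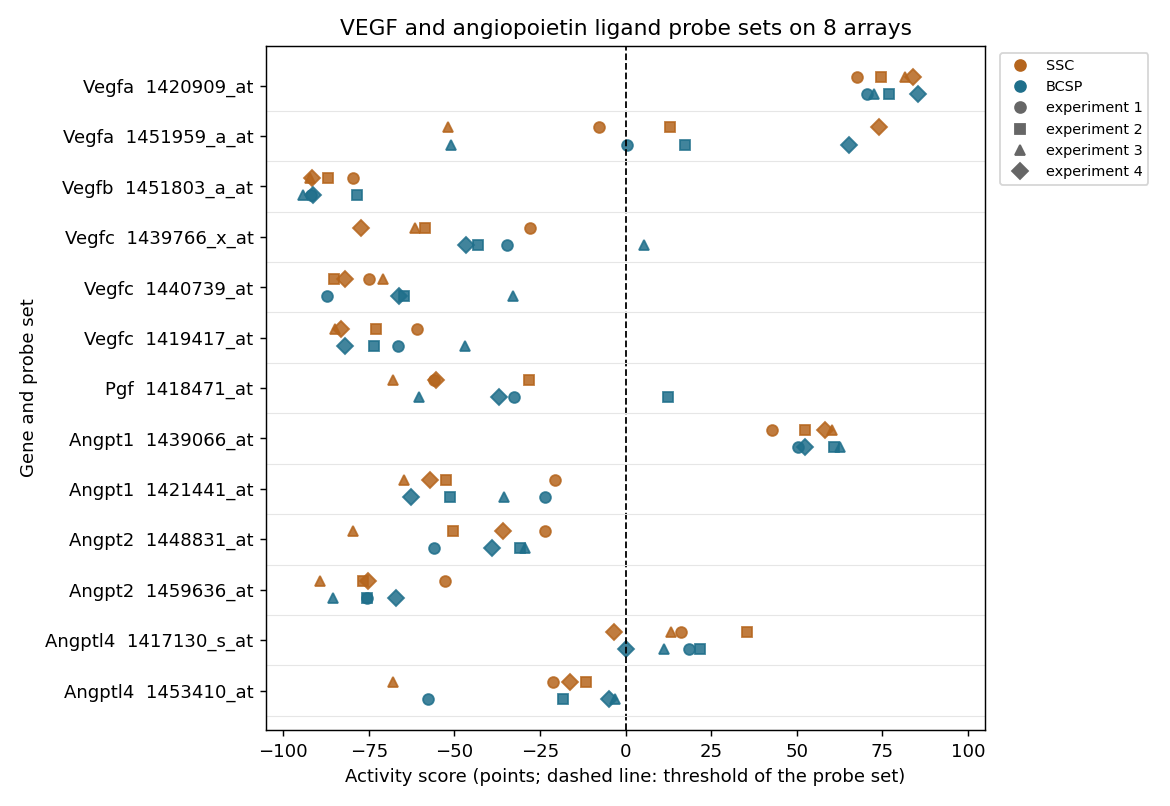
Activity score (x axis, points) of each of the 13 ligand probe sets (rows) on every array, SSC in orange and BCSP in blue, with a marker shape for each experiment and a dashed line at the threshold of 0. Vegfa 1420909_at and Angpt1 1439066_at lie wholly to the right of the line, Vegfb lies at the far left between -94.2 and -78.5, and the points of Vegfa 1451959_a_at are spread by experiment.

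Vegfa was the highest scoring ligand. Its probe set 1420909_at scored 67.5, 74.6, 81.7 and 84.0 on the SSC arrays of experiments 1 to 4 and 70.6, 77.0, 72.5 and 85.4 on the BCSP arrays. Every array was well above threshold and the populations overlapped throughout. These scores placed the probe set at the 90.6th to 95.3th percentile of the probe sets on its array. The means were 76.9 ± 7.45 in SSCs and 76.4 ± 6.60 in BCSPs (SD, n = 4 each), a difference of 0.560 points with a 95% interval of -10.6 to 11.7 (limma, adjusted p = 1.000). This interval, from the fit without a block, bounds a difference between the populations to about the spread of the arrays themselves. When the experiment entered the fit as a replicate block, the interval was -6.52 to 7.64.

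The second Vegfa probe set, 1451959_a_at, gave another picture. It scored -7.73 in SSCs and 0.320 in BCSPs of experiment 1, 12.9 and 17.2 in experiment 2, -51.8 and -51.0 in experiment 3, and 74.0 and 65.3 in experiment 4. Both populations were thus high in experiment 4, low in experiment 3 and near the threshold in the others. The probe set was active on 5 of 8 arrays. The populations differed by -1.11 points (SSC minus BCSP), with an interval of -69.6 to 67.3, which narrowed to -22.9 to 20.7 when the experiment entered as a replicate block. The means of the experiments spanned 121 points, whereas the largest difference within an experiment was 8.63 points. Over all probe sets the medians of these quantities were 34.7 and 33.8 points.

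This pattern was noticed in the scores and then tested on them. An F test between the 4 experiments, with the population in the same limma fit, gave an adjusted p of 0.0484 for 1451959_a_at, and it was the 1 ligand probe set of 13 past 0.05, where 0.995% of all probe sets passed. The call was at the edge of the threshold. It was lost without any single array and without any experiment (adjusted p 0.0685 to 0.299), and also with moderation that ignored the mean score (0.0974). The other Vegfa probe set, 1420909_at, had experiment means from 69.0 to 84.7 and an adjusted p of 0.194. It too was highest in experiment 4, but in experiment 3, where 1451959_a_at was lowest, it scored 81.7 and 72.5.

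Array quality measures also moved between the experiments. The 3′ score of actin exceeded its 5′ score by 59.6 points in SSCs and 64.9 in BCSPs of experiment 3, and by 23.1 to 44.2 points elsewhere. For Gapdh this difference was 54.7 and 49.1 points in experiment 3, 53.9 and 71.9 in experiment 4, and 21.3 to 44.2 in experiments 1 and 2. Each 3′ and 5′ score is placed within the range of its own probe set, so these differences are not ratios of 3′ to 5′ signal. The hybridization controls, 18 probe sets for RNA added at the bench, had array medians of 68.3 and 72.0 in experiment 1, 32.8 and 42.0 in experiment 3, and -25.4 to 8.24 in the others. Their part in the Vegfa pattern was not tested. The sources used here do not give where the 2 probe sets lie on the Vegfa transcripts.

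**Figure D2:**
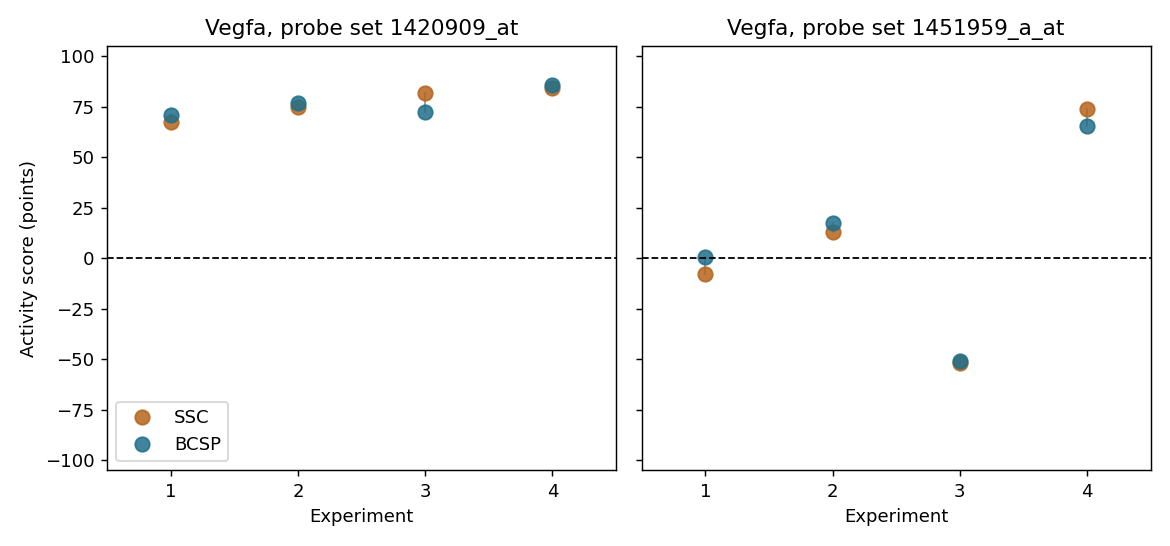
Activity score (y axis, points) of the 2 Vegfa probe sets in each experiment (x axis), SSC in orange and BCSP in blue, with a dashed line at the threshold of 0. The left panel stays between 67.5 and 85.4, while in the right panel the pair of arrays of each experiment lie together and the pairs range from -51.8 to 74.0.

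Among the other VEGF family ligands, none was active on more than 1 array. Vegfb, a ligand of VEGF receptor 1, was the lowest of all, with 1451803_a_at at -79.7, -87.0, -92.1 and -91.5 in SSCs and -91.8, -78.5, -94.2 and -91.3 in BCSPs. Both populations lay close to the floor of the score. The difference was 1.36 points (-11.3 to 14; limma, adjusted p = 1.000).

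Pgf, the placental growth factor, was measured by 1418471_at at -55.9, -28.3, -68.0 and -55.4 in SSCs and -32.7, 12.3, -60.4 and -37.0 in BCSPs. The SSC array was the lower of the pair in 4 of 4 experiments, by 7.66 to 40.6 points, although the populations overlapped and the BCSP array of experiment 2 was the only one above 0. The mean difference was -22.4 points with an interval of -59.7 to 14.8, and it did not pass the test (limma, adjusted p = 1.000). Without the BCSP array of experiment 2 the difference was -8.53 points. With the experiment as a replicate block the interval was -46.7 to 1.85 (adjusted p = 0.933). An exact two-sided permutation test gave p = 0.314 over the 70 assignments of arrays and p = 0.125 over the 16 exchanges within experiments, the latter being the smallest that these exchanges can give.

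Vegfc, the lymphatic ligand, had 3 probe sets, all with a lower mean in SSCs. The highest scoring, 1439766_x_at, gave -28.0, -58.5, -61.6 and -77.2 in SSCs and -34.6, -43.0, 5.38 and -46.7 in BCSPs. The BCSP array of experiment 3 stood above the rest and was the 1 array past the threshold. The difference was -26.6 points (-61.1 to 7.99), the largest of any ligand probe set, and in experiment 3 alone it was -67.0 points. Without the BCSP array of experiment 3 it was -14.9 points. The other probe sets, 1440739_at and 1419417_at, were active on no array and differed by -15.5 (-40.2 to 9.18) and -8.20 points (-29.3 to 12.9). In both of them the BCSP array of experiment 3 was again the highest of all 8, at -33.0 and -47.0. None of these differences passed the test (limma, adjusted p = 1.000). The suffix x marks a probe set whose probes may also bind other transcripts.

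Of the angiopoietins, Angpt1 was active and Angpt2 was not. Angpt1, the activating ligand of Tie2, was measured by 1439066_at at 42.6, 52.5, 60.2 and 58.1 in SSCs and 50.3, 60.9, 62.7 and 52.5 in BCSPs. All 8 arrays were above threshold, and the means of 53.4 ± 7.87 and 56.6 ± 6.10 (SD, n = 4 each) differed by -3.23 points (-17.8 to 11.3; limma, adjusted p = 1.000). The other Angpt1 probe set, 1421441_at, was below 0 on every array, between -64.7 and -20.7, so that the call of Angpt1 as active rests on 1 of its 2 probe sets.

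Angpt2, the context-dependent antagonist, was below threshold by both of its probe sets. In SSCs 1448831_at scored -23.6, -50.4, -79.5 and -35.9, and in BCSPs it scored -55.9, -30.9, -29.5 and -39.0. The SSC arrays were spread more widely and held both the highest and the lowest score. The difference of -8.52 points (-39.8 to 22.7) changed sign between experiments, from 32.3 in experiment 1 and 3.14 in experiment 4 to -19.5 in experiment 2 and -50 in experiment 3. The probe set 1459636_at ran from -89.3 to -52.9.

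Angptl4, the inhibitor of lipoprotein lipase, sat near its threshold. By 1417130_s_at it scored 16.2, 35.5, 13.3 and -3.52 in SSCs and 18.4, 21.8, 11.3 and 0.0700 in BCSPs. It was thus active on 7 of 8 arrays, with the arrays of experiment 2 highest and those of experiment 4 lowest in both populations. The means of 15.4 ± 16 and 12.9 ± 9.61 (SD, n = 4 each) differed by 2.46 points (-26.1 to 31.0; limma, adjusted p = 1.000). The second probe set, 1453410_at, was below 0 on every array, from -68.0 to -2.98. Activity of Angptl4 on 7 arrays thus rests on 1 of its 2 probe sets.

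By the highest scoring probe set of each gene, the scores fell into an order that was the same in both populations at its top. The lowest Vegfa score, 67.5, was above the highest Angpt1 score, 62.7, and the lowest Angpt1 score, 42.6, was above the highest Angptl4 score, 35.5. Below these, Pgf, Vegfc and Angpt2 had means of -40.7, -43.0 and -43.1 points over 8 arrays and overlapped throughout, so that no order can be read among them. Vegfb had the lowest mean, -88.2, and its highest array, at -78.5, was just above the lowest Angpt2 array, at -79.5. Counted by gene, 2 of 7 were active on every array and 2 on no array, beside 25.0% and 43.5% of all genes by the same rule. Counted by probe set, 2 of 13 were active throughout and 7 on no array, beside 16.1% and 49.5% of all probe sets. The ligands as a set were thus near the background of the arrays, and Vegfa and Angpt1 were each active on all 8 arrays by 1 probe set. With the 95th percentile of endothelial, macrophage and megakaryocyte marker probe sets as another threshold (-1.72 to 59.8 points by array, and above 0 on all but the BCSP array of experiment 3), Vegfa remained above it on 8 arrays by 1420909_at and Angpt1 on 5. On most arrays this percentile equalled the score of Erg, Gp1bb or Laptm5, the exceptions among these markers. It thus compares the ligands with those exceptions and not with silent genes.

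Across the comparison of SSCs with BCSPs, 0 of 13 ligand probe sets passed limma at an adjusted p of 0.05, and 0 of all 45037 did, which is 0% of those tested. Eng, the gene of the CD105 gate, differed by -58.4 points (limma, unadjusted p = 0.00509) and did not pass adjustment either. The adjusted test thus missed even the gene on which the sort separated the populations. At an unadjusted p under 0.05 the count was 0 of 13 and 1081 of all, or 2.40%. With the experiment as a replicate block the counts at this level were 0 of 13 and 2268 of all, and by the methods' t-test 0 of 13 and 1094 of all, with 0 past adjustment in each. SSC and BCSP arrays were fully separated in 0 of 13 ligand probe sets and in 1.43% of all. The SSC mean was the lower in 9 of 13, which include probe sets of the same gene. The 95% intervals without a block were narrow for 1420909_at of Vegfa and for Vegfb, reaching 11.7 and 14 points at most. The scores of Vegfb lay close to the floor, which limits how far they can differ. The widest interval was that of the other Vegfa probe set, 1451959_a_at, at -69.6 to 67.3 points. Those of 1439766_x_at of Vegfc and of Pgf reached -61.1 and -59.7 points, so that sizeable differences in these were not detectable with 4 arrays a group.

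**Figure D3:**
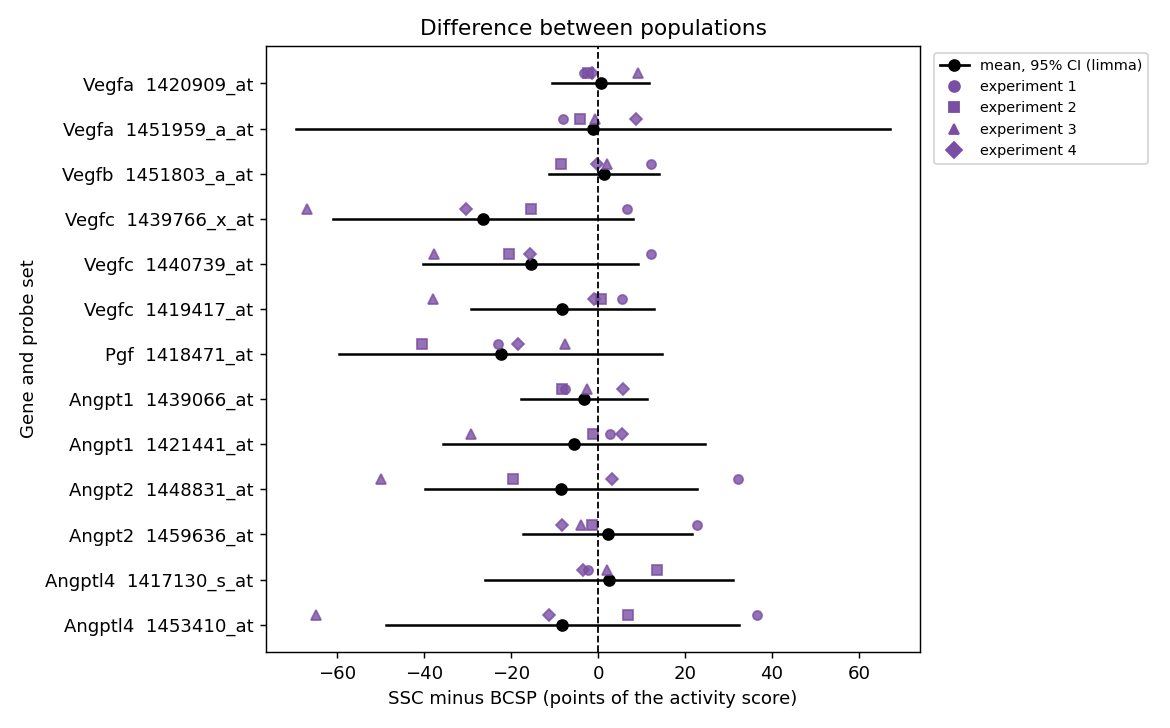
SSC minus BCSP in points (x axis) for each ligand probe set (rows). Black points and bars are the mean difference and its 95% interval from limma without a block, and purple marks are the 4 experiments. Every interval crosses 0, and the 4 marks of Pgf, from -40.6 to -7.66, all lie to the left.

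The receptors of these ligands were mostly below threshold in the same cells. The neuropilins Nrp1 and Nrp2, co-receptors for VEGF-A, were the ones active on all 8 arrays, at 53.3 to 81.1 and 29.0 to 77.8. Tek and Tie1, the pair through which angiopoietins signal, were active on no array, and Tie1 reached -46.1 at most. Flt1, the receptor of VEGF-B and PGF, was active on no array (-91.7 to -28.6) and Flt4, the receptor of VEGF-C, on 1. Kdr, the main receptor of VEGF-A, which was named after its scores were seen, was active on no array either (-88.9 to -42.6). The gate removed Tie2+ cells, so the scores of Tek are not independent of the sort. The part of the gate in the low scores of Tie1, Kdr and Flt1 was not tested. No receptor passed the test between populations (limma, 0 of 7 called).

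Ligands of the same families that were not members were active on all arrays in 0 of 6. Angptl1, an orphan ligand of the angiopoietin-like group, was active on 7 arrays and Angptl6 on 6, whereas Vegfd, Angpt4, Angptl7 and Angptl8 were active on none. Among 7 measured partners of angiopoietin-like proteins, 3 were active on all arrays. Sdc4, a heparan sulphate proteoglycan, scored 75.0 to 93.0, and the integrin subunits Itgav and Itgb1 scored 34.5 to 52.7 and 17.8 to 33.2. No other probe set of Itgav or Itgb1 was active on more than 1 array. Gpihbp1, which carries lipoprotein lipase across capillary endothelium, was active on none. Itga5, another integrin subunit, was active on 6 arrays and had an adjusted p of 0.0384 between experiments (limma F test), in which 0 of all probe sets passed without trend.

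Most targets of the hypoxia pathway, to which Vegfa belongs, were active in both populations, and its sensing genes were mixed. Of 14 textbook targets of the hypoxia-inducible factors, 13 were active on all 8 arrays and 1, Mxi1, on 7, beside 25.0% of all genes active on all 8. The list was drawn up with results of these data known, so this share is a description only. Higd1a, a mitochondrial protein, scored 99.9 to 100, P4ha1, a collagen prolyl hydroxylase, 98.1 to 100, Bnip3, a mitophagy receptor, 98.0 to 99.8, and Pdk1, a pyruvate dehydrogenase kinase, 95.2 to 98.5. Of 10 genes of oxygen sensing, 6 were active on all arrays, among them Hif1a at 95 to 97.8, its prolyl hydroxylase Egln1 at 71.3 to 87.8, its partner Arnt at 31.6 to 59.9 and Vhl, which targets it for degradation, at 26.0 to 59.2. The other Vhl probe set was active on no array, and no other Arnt probe set on more than 4. Hif3a was active on 4 arrays and Egln2 on none. No gene of either list passed the test between SSCs and BCSPs (limma, 0 of 14 and 0 of 10 called). Between experiments, Ldha of the target list had an adjusted p of 0.0471, in a test that 0 of all probe sets passed without trend and 0 to 24 without 1 array or experiment.

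Genes linked to the lipid-sensing and glucocorticoid receptors, which are known to drive Angptl4, were mixed. Of 9, 2 were active on all arrays, the glucocorticoid receptor Nr3c1 at 66.6 to 94.0 and its target Tsc22d3 at 48.3 to 89.2. The target genes Plin2 and Pdk4, which respond to fatty acids, were near threshold, at -31.9 to 4.98 and -19.7 to 1.73, and Ppara and Cpt1a were active on none. Fkbp5, a further glucocorticoid target (-64.3 to -16.2), and Pparg (-81.4 to -56.8), both named after their scores were seen, were also active on none.

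Of 13 proteins that free, cleave or retain VEGF, 9 were active on all arrays, beside 25.0% of all genes. This list too was drawn up with results of these data known. Adamts3 and Pcsk5, proteases that process VEGF-C and other precursors, scored at least 99.3 and 98.8 on every array, although Vegfc itself was below threshold on 7 of them. Htra1 scored 90.2 to 97.5 and the matrix metalloproteinase Mmp2 86.0 to 96.7. The plasmin system was low, with Plg and its activator Plau active on no array.

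Other vessel growth factors were active on all arrays in 4 of 15, a share near the 25.0% of all genes. The highest were the matricellular proteins Ccn2 at 96.2 to 98.9 and Ccn1 at 92.2 to 97.9. Pdgfa scored 34.4 to 76.2. Apln, the apelin precursor, scored 72.7 ± 37.4 in SSCs and 34.7 ± 39.3 in BCSPs (SD, n = 4 each) and was active on 7 arrays. Its populations overlapped, and the difference of 38.0 points did not pass the test (limma, unadjusted p = 0.122). Pdgfb and Edn1 were active on none. Pdgfb scored -38.6 ± 14.2 and -73.5 ± 23.3, a difference of 34.9 points that did not pass adjustment (limma, adjusted p = 1.000).

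Inhibitors of vessel growth were active on all arrays in 8 of 12, beside 25.0% of all genes, from a list drawn up with results of these data known. Cnmd (chondromodulin), a cartilage protein that keeps vessels out, scored 99.9 to 100, and Sparc, Thbs2 and Timp3 scored 94.6 to 99.5, 73.8 to 91.1 and 59.3 to 75.3. Col18a1, the precursor of endostatin, and Sema3a, a neuropilin ligand that competes with VEGF-A, were active on none.

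Of the 13 endothelial markers, 11 had a lower and 2 a higher mean in SSCs, the latter being Cdh5 (28.6 points) and Pecam1 (3.36). An unadjusted p under 0.05 was reached by 4, each lower in SSCs, beside 2.40% of all probe sets. These were Sox17 (-53.9 points), Robo4 (-39.5), Cldn5 (-33.9) and Emcn (-32.6), which were singled out after their values were seen. None passed adjustment (limma, adjusted p = 1.000) and none was active on any array. Over the whole list the array medians ran from -82.5 to -31.8. Their part in the lower SSC means of Pgf and Vegfc was not tested.

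**Figure D4:**
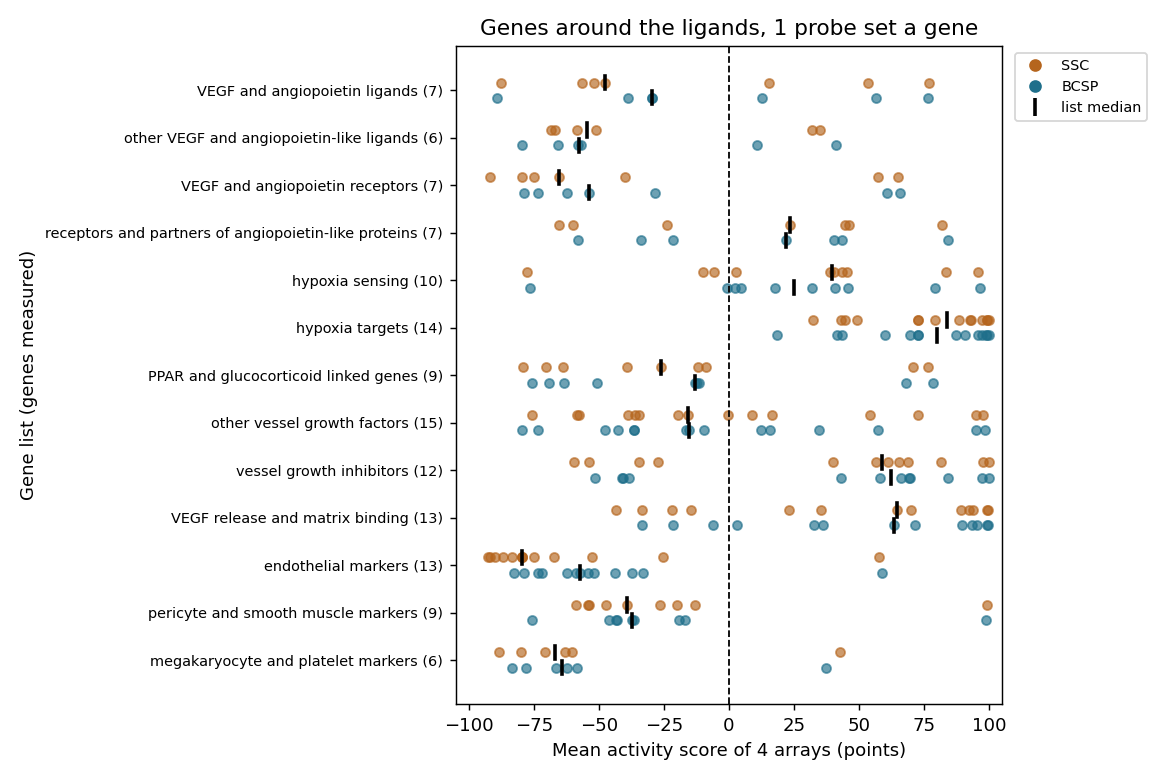
Mean activity score of 4 arrays (x axis, points) for each gene of 13 lists (rows, with the number of genes measured), SSC in orange and BCSP in blue, each gene by its highest scoring probe set. Black bars are the median of the gene means, and the dashed line is the threshold of 0. The ligands spread over the whole scale, from Vegfb at -87.6 to Vegfa at 76.9 in SSCs, while 13 of 14 hypoxia targets were active on all 8 arrays.

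The genes whose scores ran most like those of Vegfa 1420909_at over the 8 arrays were Tmem67, Mpp4 and Cyb5d1, with Pearson r of 0.975, 0.956 and 0.954. For Angptl4 1417130_s_at they were Sp110, Fzd10os and B230208B08Rik, with r of 0.955, 0.944 and 0.943. These are the highest of 16478 and 16477 genes compared over 8 arrays that share experiments, and they are a description only. Of the 6, Cyb5d1 alone was active on all 8 arrays, at 35.9 to 81.2.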

How the data were processed

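The authors amplified RNA of sorted cells and measured it on Affymetrix mouse arrays, which were normalized in Gene Expression Commons with its Common Reference. The deposited table holds 1 activity score per array for 45101 probe sets. The sources used here do not give how probes were summarised. Of the probe sets, 64 controls were left out. The platform annotation gave 34945 of the rest 1 gene symbol, 932 several and 9160 none. In lists, the probe set with the highest mean stood for its gene, so a gene counted as active could be below 0 by its other probe sets.

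The populations were tested against each other in R 4.3.3 by limma 3.58.1 (lmFit without a block, then eBayes with trend) over all 45037 probe sets, p-values being adjusted by Benjamini-Hochberg and called under 0.05. The F test between experiments was added after seeing the data. The exact permutation tests were two-sided. The members and lists were chosen with earlier results of these data known. Genes named were the members and, from each list, up to 4 with the highest and 2 with the lowest mean score. Exceptions are stated. For likeness, genes with a range of at least 20 points were ranked by Pearson r.

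The BCSP array of experiment 2 has a title that numbers it 3 and a description that numbers it 2, and was taken as 2. Deviations of same-numbered arrays correlated at 0.394, 0.164, 0.605 and 0.173 in experiments 1 to 4, each best with its own number. By this check the numbers pair the arrays, and a replicate block of the experiment was added as an alternative fit. The others were quantile normalization, centring, an inverse normal scale, filters on low scores, array weights, eBayes without trend, the methods' t-test, other ways to represent a gene, and leaving out arrays and experiments. The fits were tested on simulated scores. A first simulation of the F test recovered no changed probe set, so its noise and change were set anew, and it then recovered a minority. The number of arrays limits the precision. Python 3.11.15, pandas 2.3.3, numpy 2.4.6 and scipy 1.17.1 were used. Lists also held genes that were not analysed here.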

Additional observations from a re-analysis of the deposited data

How the results depend on the processing

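No ligand probe set passed the test between SSCs and BCSPs under any of the 23 settings run, and 0 probe sets of the arrays did. The lowest adjusted p of a ligand was 0.933, with the replicate block. Of 276 probe set differences recomputed (SSC minus BCSP, points), 242 kept their direction and 34 changed sign, all uncalled. The replicate block, eBayes without trend, the t-test, the filters and the highest probe set of each gene leave a difference as it is. Their differences could not change sign and are among the 242. Only Pgf and the Vegfc probe sets 1439766_x_at and 1440739_at kept their direction under every alternative. The cause of the changes was not tested.

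Vegfa 1451959_a_at gave 1.16 under quantile normalization, 0.0205 on the inverse normal scale and 1.94 with array weights. Vegfa 1420909_at gave -0.599 with array weights and -0.277 as the mean of its gene's probe sets, and Angptl4 1417130_s_at gave -2.90 by that mean. Angpt2 1459636_at gave -0.0298 on the inverse normal scale. Without 1 array or 1 experiment, Vegfa 1451959_a_at ranged from -23.5 to 18.4, Vegfa 1420909_at from -2.32 to 3.71, Vegfb from -2.22 to 4.83 and Vegfc 1419417_at from -13.1 to 1.72. Angpt1 1439066_at ranged from -6.18 to 0.349, Angpt1 1421441_at from -14.9 to 2.35, Angpt2 1448831_at from -22.1 to 5.32 and Angpt2 1459636_at from -4.67 to 7.48. Angptl4 1417130_s_at ranged from -4.24 to 8.75 and Angptl4 1453410_at from -23.2 to 10.7.

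Between experiments, the 1 ligand call, Vegfa 1451959_a_at, held in 6 of 19 settings (adjusted p 0.0336 to 0.299). The ligand count was 0 without trend, 0 with the highest probe set of each gene, which leaves this probe set out, and 0 without any 1 array or experiment. Over all probe sets 448 were called, with 1147 under quantile normalization, 1418 after centring, 1020 on the inverse normal scale, 834 and 1574 under the filters on mean score and on activity, 1326 with weights, 250 with the highest probe set, 0 without trend, and 0 to 24 without 1 array or experiment. The count of ligand genes active on all arrays was 2, and 0 where every probe set had to be active. With the marker percentile as threshold, which the exceptional markers mostly set, the count was 1.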
